A study of Ictidomys tridecemlineatus with 15 samples.

Results

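Of the 6324 transcription units counted in these livers, 268 were long single-gene units, gene bodies of 200 kb or more that carried a gene symbol and had not been merged with a neighbour, counted over exons and introns alike. They were taken by length and name alone, leaving out units with a placeholder or locus name, and made up 4.24% of all units and 6.10% of the 4392 named single-gene units. The authors had extended many units at the 3' end where reads of any state, torpor included, ran past the annotated gene. How many units reached 200 kb through such an extension was not tested. The questions were which of these long genes were transcribed at a higher or lower level in the cold states of the torpor bout, and whether any differed between its early and its late phase. Transcription was measured by global run-on sequencing (GRO-seq), in which polymerases caught on a gene extend their transcripts with a labeled nucleotide in isolated nuclei. Its reads thus show where transcription was under way, and not how much of a transcript the cell held.

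A polymerase that enters a long gene needs far more time to reach the end than a polymerase on a short gene, so that reads over a long body reflect initiation over an extended past as well as the speed and survival of polymerases on the way. Long genes have many or large introns and are enriched among genes for cell adhesion, cytoskeletal scaffolds, signalling and neuronal function. In the liver they also include enzymes and transcription factors of intermediary metabolism.

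The animals were female 13-lined ground squirrels, a species that hibernates through the winter in cycles of deep torpor and brief arousal. SA squirrels (summer active, n = 3) were homeothermic, before the onset of hibernation. The others were hibernators taken at 4 points of the torpor-arousal cycle, namely IBA (interbout aroused, warm between torpor bouts, n = 3), Ent (entering torpor and cooling, n = 3), ET (early torpor, cold, n = 3) and LT (late torpor, cold, n = 2). All were laboratory housed, from a breeding colony, and were untreated apart from the measurement of body temperature. For this the paper names implanted recorders or a rectal probe. LT replicate 2 was not analysed here. Collection ran over 3 seasons. Both LT squirrels came from the earliest season, all ET squirrels from the middle one and all IBA squirrels from the latest, whereas SA and Ent mixed the earliest and the latest, so that ET cannot be told apart from its season. Each library came from a separate animal. SA and IBA are together called warm and ET and LT torpid, and warm to torpid is the difference between the mean of ET and LT and the mean of SA and IBA.

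The libraries held 3713883 to 8884763 reads counted on units. The long units were well covered, with a median of 24992 reads over the 14 libraries against 6274 for the 4124 shorter named units, and Stk32b alone had fewer than 10 counts in a library. Hepatocyte markers were present in every library, and summed over the 6 of 12 listed markers with a unit of their own (Apob, Ttr, Tf, Fgb, Cps1 and Hnf4a) they ranged from 8725 to 20159 counts scaled to a common library size (CPM) in the warm and from 3688 to 6987 in the torpid libraries. The endothelial markers Stab1, Pecam1 and Kdr, 3 of 8 listed, summed to 186 to 241 CPM in the warm and 124 to 203 in the torpid libraries, and the cholangiocyte marker Sox9, 1 of 5 listed, stood at 16.5 to 41.0 and 7.07 to 18.1 CPM. None of these markers was at 0 in any library, and no listed Kupffer cell, stellate cell or lymphocyte marker had a unit of its own. The part of these markers in the results below was not tested, and in whole liver fewer cells of a type and less nascent RNA per cell cannot be told apart.

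The long units ranged from 200185 to 1969614 nt, with a median of 291 kb. Of these, 147 were under 300 kb, 61 were between 300 and 400 kb, and 60 were longer. They lay on 19 chromosomes of the HiC_Itri_2 assembly, 121 on the plus and 147 on the minus strand. Per length, their transcription differed widely. The mean level over all libraries ran from 0.0407 CPM per kb for Lsamp, a neuronal adhesion molecule, to 7.83 CPM per kb for Adk (adenosine kinase), with a median of 1.01 against 2.22 CPM per kb for the shorter named units. The 5 long genes with the highest level per kb were Adk, Gbe1 (glycogen branching enzyme, 7.64), Egfr (the epidermal growth factor receptor, 5.70), Fndc3b (4.77) and Rbfox2 (a splicing regulator, 4.45 CPM per kb).

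As a group, the long genes stood lower against the shorter genes in the torpid libraries than in the warm ones. The median log2 CPM of the long units minus that of the shorter named units was 2.00, 2.04 and 1.95 in the SA libraries, 2.26, 2.21 and 2.23 in IBA, 2.07, 2.06 and 2.13 in Ent, 1.86, 1.81 and 1.89 in ET, and 1.89 and 1.91 in LT. IBA was highest and ET and LT were lowest, with no overlap between the torpid and the warm libraries. The difference between the torpid mean, 1.87 ± 0.04 (SD, n = 5), and the warm mean, 2.11 ± 0.13 (SD, n = 6), was -0.24 on the log2 scale (two-sided exact permutation test over libraries, p = 0.0043, the smallest that 5 against 6 allow). It was -0.36 against IBA alone and -0.12 against SA alone (exact permutation p = 0.036 each, the smallest that 5 against 3 allow). The IBA and the torpid squirrels shared no season. Within the earliest season, the only season with warm and torpid animals, the LT libraries were 0.10 below SA replicate 1 on the same scale, with too few libraries for a test. The ET and LT libraries differed by 0.05, with p = 0.4 in the same exact test, where 2 against 3 allow no p under 0.2.

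The share of all counted reads that fell on long units moved differently. It was 10.1%, 10.7% and 9.94% in SA, 11.8%, 11.1% and 11.5% in IBA, 10.8%, 10.8% and 11.5% in Ent, 9.66%, 10.8% and 10.2% in ET, and 10.3% and 10.8% in LT. The torpid libraries (10.4% ± 0.472, SD, n = 5) overlapped the warm ones (10.9% ± 0.762, SD, n = 6), and their difference of -0.516 percentage points was within the spread (two-sided exact permutation test, p = 0.22). Within the earliest season the LT libraries were 0.434 points above SA replicate 1. As a share of uniquely mapped reads the torpid minus warm difference was 0.204 points (exact permutation test, p = 0.41). This share is weighted toward the most transcribed long genes, whereas the median counts each gene alike.

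**Figure D1:**
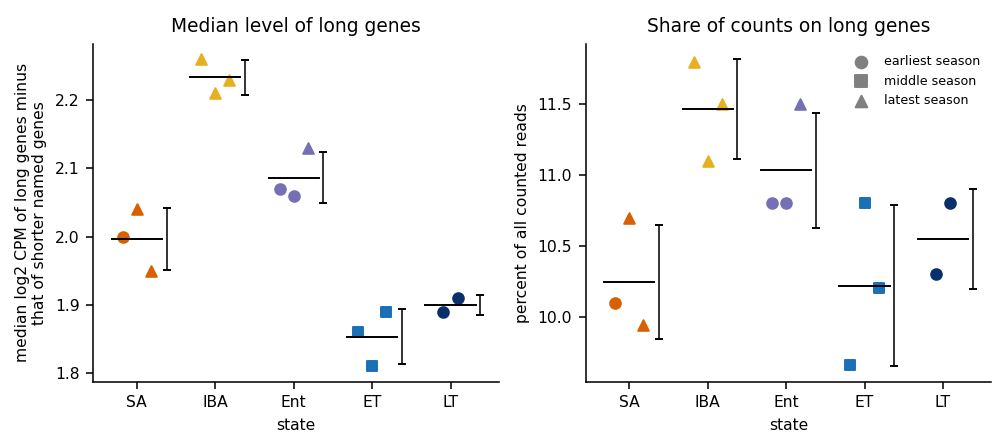
Values of each library by state, with the 3 collection seasons as different symbols, bars at the state mean and whiskers of 1 SD (n = 3, in LT 2). On the left, the y axis (log2, not starting at 0) gives the median level of the 268 long units minus that of the shorter named units, which was 2.21 to 2.26 in IBA and 1.81 to 1.91 in ET and LT. On the right, the y axis (percent, not starting at 0) gives the share of counted reads on long units, in which the torpid and warm libraries overlap.

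From warm to torpid, 6 long genes rose and 31 fell at an adjusted p of 0.001, and 231 did not pass. Rises and falls are relative to the other units of the same libraries and not absolute amounts of transcription. The paper warns that scaling by library size hides changes in total transcription between states, and no scaling used here recovers them. Here and below, p-values from the quasi-likelihood test of edgeR were adjusted by the Benjamini-Hochberg method over all 6324 units. The rises were 2.24% of the long units against a background of 18.6% of all units, and the falls 11.6% against 17.6%. The standard errors of the log2 fold changes were alike, with a median of 0.14 for the long units and 0.15 over all units. The median log2 fold change of the long units was -0.22, against -0.04 over all units, and 72.4% of the long units had a negative value against 52.5% of all units. Scaled to the uniquely mapped reads of each library, the median of all units moved up by 0.23, and 18 long genes rose and 18 fell (6.72% each, against 26.6% and 12.2% of all units). The median of the long units relative to that of all units was -0.18 under both scalings. A change of library size shifts all units nearly alike, so that this value could not differ between them. The smallest of the 31 falls was -0.57, so that the shift could not bring any of them to 0 either. The number of rises was 3 without IBA replicate 2, 2 without IBA replicate 3, 3 without ET replicate 3 and 1 without LT replicate 1, and without the last of these libraries 20 genes fell.

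The share of rises was lower in longer length classes from 10 kb upward to 600 kb. Among named single-gene units of 10 to 25 kb, 28.1% rose from warm to torpid, as did 24.3% at 25 to 50 kb, 15.0% at 50 to 100 kb and 3.09% at 100 to 200 kb. At 200 to 300 kb 2.04% rose, at 300 to 400 kb 1.64%, and at 400 to 600 kb none of 39, while of the 21 units of 600 kb or more 2 rose (Nrg3 among them) and none fell. The share that fell changed less with length, from 17.0% at 10 to 25 kb to 18.9% at 100 to 200 kb and 12.2% at 200 to 300 kb. The median log2 fold change passed from 0.16 at 10 to 25 kb to -0.23 at 100 to 200 kb, -0.33 at 300 to 400 kb and -0.05 at 600 kb or more. The 280 named units under 10 kb broke this order, with 15.0% rising, 23.6% falling and a median of -0.23. At the length limit itself, the 3 units just over 200 kb were Vps13c (log2 fold change 0.29), the PDZRN3-like gene (-2.22) and Kiaa1109 (0.02), and the 3 just under were Fyn (-1.05), Cpne8 (0.21) and Kcnab1 (-3.31).

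**Figure D2:**
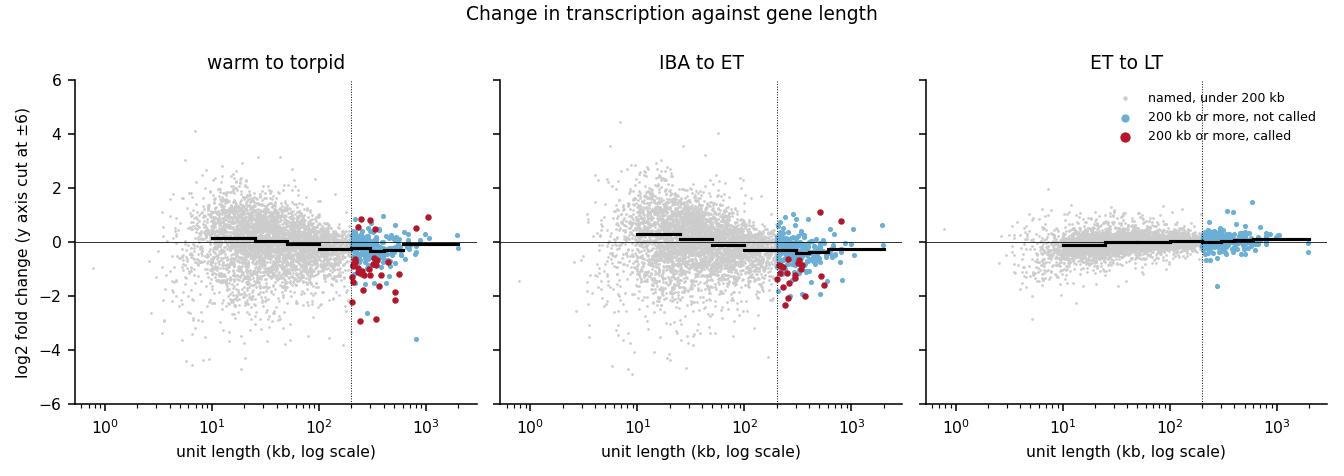
Log2 fold change of each named single-gene unit (y axis) against its length in kb (x axis, log scale) from warm to torpid, from IBA to ET and from ET to LT, with the 200 kb limit dotted. Grey points are units under 200 kb, blue points long units, red points long units at an adjusted p of 0.001 or less, and black bars the median of each length class from 10 kb upward. From warm to torpid the bar passes from 0.16 at 10 to 25 kb to -0.33 at 300 to 400 kb, and no red point appears from ET to LT. No bar is drawn for units under 10 kb, whose median from warm to torpid was -0.23.

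The counts by list, here and in the next paragraphs, are from warm to torpid. Over all units 18.6% rose and 17.6% fell, and over the long units 2.24% and 11.6%. Whether any list differed from these shares was not tested. Of 28 listed receptors, kinases, phosphatases and other signalling genes, 3 fell, 1 rose and 24 did not pass (median log2 fold change -0.39). Pde4b stood at 171, 270 and 158 CPM in SA, 77.3, 99.5 and 72.3 in IBA, 54.1, 58.7 and 57.5 in Ent, 28.0, 39.7 and 37.8 in ET, and 38.4 and 37.4 in LT. Pde4b, a phosphodiesterase that breaks down cyclic AMP, lies on chromosome 11 from 78823473 to 79337211. It was highest in summer, lower in every IBA library and lowest in ET and LT (log2 fold change -1.82 ± 0.16 SE, edgeR adjusted p = 1.6e-06). The other falls of the list were Adgrl2 (latrophilin 2, an adhesion receptor; log2 fold change -0.60, edgeR adjusted p = 9.3e-05) and Ppp1r12b, a regulatory subunit of myosin phosphatase (log2 fold change -0.72, edgeR adjusted p = 0.00024).

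Of 23 listed genes of metabolism, transport and mitochondria, 5 fell, 1 (Pcca) rose and 17 did not pass (median -0.41). Sgms1 stood at 494, 384 and 559 CPM in SA, 722, 620 and 621 in IBA, 384, 333 and 390 in Ent, 234, 265 and 295 in ET, and 312 and 290 in LT. Sgms1, sphingomyelin synthase 1, is a unit of 293 kb on chromosome 1 and was transcribed well above most falling genes. It was highest in IBA, and no torpid library reached a warm one (log2 fold change -0.99 ± 0.12 SE, edgeR adjusted p = 1.1e-05). Kcnt2, a sodium-activated potassium channel subunit, had a mean of 36.4 ± 22.6 CPM in SA, 62.2 ± 4.05 in IBA and 15.5 ± 1.38 in ET (SD over 3 animals each), and of 15.7 ± 0.979 over the 2 LT animals. No torpid library of Kcnt2 reached a warm one (log2 fold change -1.60 ± 0.27 SE, edgeR adjusted p = 0.0002). Tmtc2, which adds mannose to proteins of the endoplasmic reticulum, fell by 1.22 on the log2 scale, Slc4a4, a sodium bicarbonate cotransporter, by 0.78, and Fut8, the core fucosyltransferase, by 0.78.

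The lists do not hold every long gene of their kind, and Rfx3, Eml6, Ank1 and Dnah6, described below, fell but are in none of them. Of 29 listed transcription factors, coregulators and chromatin genes, 2 fell and 27 did not pass (median -0.13). Camta1, a calmodulin-binding transcription activator, had a mean of 92.7 ± 67.4 CPM in SA and 46.4 ± 22.5 in IBA against 12.2 ± 5.08 in ET (SD over 3 animals each) and 18.7 ± 2.93 over the 2 LT animals, and fell by 2.11 with a wide standard error of 0.40. The homeobox factor Pbx3 fell by 0.88, and its highest library was SA replicate 1 at 1100 CPM. In the list for adhesion, polarity and the cytoskeleton, 1 of 27 fell, Dock4, an exchange factor for small GTPases (log2 fold change -0.73, edgeR adjusted p = 0.00098), and 26 did not pass (median -0.27). None of 26 listed genes of membrane traffic, ubiquitin and autophagy fell, 1 (Stxbp6) rose and 25 did not pass (median -0.02). Of 10 genes listed for RNA binding, processing and translation, 1 fell, 1 (Stau2) rose and 8 did not pass (median -0.03). The gene that fell was Sfmbt2, a Polycomb-group protein whose known role is in chromatin and not that of its list, and its torpid libraries overlapped those of SA.

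The 125 long genes in none of these lists held 19 of the 31 falls and 2 of the 6 rises (median -0.25). Caln1 stood at 132, 89.9 and 164 CPM in SA, 31.8, 73.6 and 42.1 in IBA, 26.1, 45.0 and 27.7 in Ent, 15.5, 4.52 and 9.26 in ET, and 13.0 and 9.72 in LT. Caln1, a neuronal calcium-binding protein, is a unit of 241 kb on chromosome 9, from 126982577 to 127223243. Its torpid libraries were all below its warm ones, and its change was the largest of the long genes that passed (log2 fold change -2.91 ± 0.34 SE, edgeR adjusted p = 1e-05). The PDZRN3-like gene, related to a ubiquitin ligase with PDZ domains, was at 302 ± 87.8 (SD, n = 3) CPM in SA, 54.4 ± 14.2 (SD, n = 3) in IBA and 28.5 ± 8.75 (SD, n = 3) in ET, and was thus already lower in IBA (log2 fold change -2.22 ± 0.23 SE, edgeR adjusted p = 4.3e-06). Tmem178b likewise went from 200 ± 137 (SD, n = 3) CPM in SA to 24.1 ± 5.68 (SD, n = 3) in IBA and 6.55 ± 2.51 (SD, n = 3) in ET, but its LT libraries stood at 4.23 and 24.9 CPM and overlapped those of IBA.

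Other long genes of that group stood at a like level in SA and IBA and lower in the cooling and cold livers. Afg1l stood at 99.1, 94.6 and 124 CPM in SA, 117, 110 and 104 in IBA, 74.1, 55.8 and 57.4 in Ent, 35.0, 51.7 and 43.4 in ET, and 46.1 and 44.0 in LT. Afg1l, a mitochondrial ATPase, was at about the same level in SA and IBA, lower in all 3 Ent libraries, and lower again in the cold (log2 fold change -1.29 ± 0.13 SE, edgeR adjusted p = 3.8e-06). Sdccag8 stood at 213, 213 and 232 CPM in SA, 229, 214 and 205 in IBA, 163, 154 and 164 in Ent, 107, 139 and 97.0 in ET, and 102 and 120 in LT. Sdccag8, a protein of the centrosome and cilium, followed the same order of states with an even narrower spread (log2 fold change -0.95 ± 0.10 SE, edgeR adjusted p = 6.3e-06).

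Several further genes without a listed role fell with non-overlapping groups. Eml6, a microtubule-binding protein, fell by 1.78 on the log2 scale, Ank1, which links the spectrin skeleton to the membrane, by 1.46, and Rfx3 and Dnah6, a transcription factor for ciliary genes and a dynein of motile cilia, by 1.21 and 1.21. Rasgef1b, an exchange factor for small GTPases, fell by 1.16, Srgap2, a GTPase-activating protein for small GTPases, by 1.14, and Cped1 by 1.07. Adjusted p for these 7 genes ran from 1.3e-05 (Srgap2 and Cped1) to 0.00059 (Ank1). Rasgef1b and Eml6 overlap a unit on the opposite strand, as do 22 of the 268 long units. The counting is not stated to use strand, so that reads of such a pair cannot be told apart.

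The 31 falling genes did not share a single course before the cold. The IBA mean was above the SA mean in 15 of them and below it in 16, and it was under 50% of the SA mean in 4 (Caln1, the PDZRN3-like gene, Tmem178b and Pde4b). The Ent mean lay between the IBA and the ET mean in 30, with Samd4a, a translational repressor, as the exception. ET held the lowest mean in 18, LT in 12 and Ent in 1. In 28 of the 31, in 54 of all 268 long units and in 40.5% of all units, the torpid and warm libraries did not overlap. The 31 genes were called on these same libraries, which favours such a separation. Within the earliest season, the LT mean was below SA replicate 1 in all 31, with a median log2 ratio of -0.94, against -0.01 over all 268 long units, but these libraries also entered the test.

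**Figure D3:**
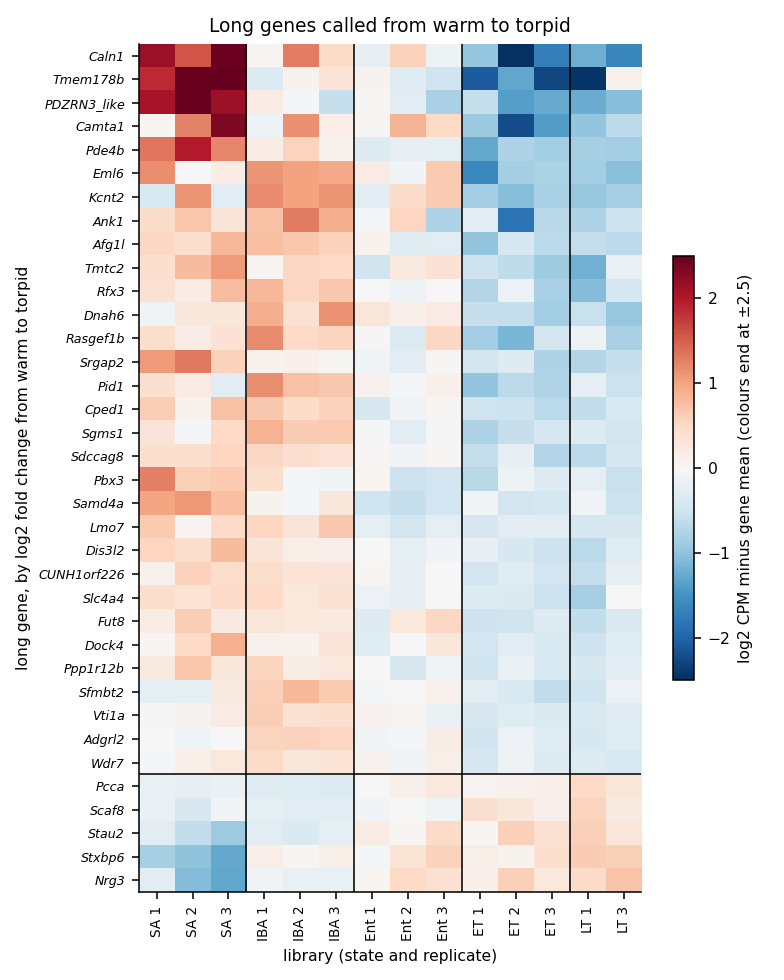
Log2 CPM of each library minus the gene's mean over 14 libraries (colour, red higher and blue lower, ending at ±2.5) for long genes at an adjusted p of 0.001 or less from warm to torpid, of which 1 that rose is not shown. Rows are genes in order of log2 fold change and columns libraries by state. The 31 genes above the line fell and are mostly blue in ET and LT, and the 5 below rose.

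The 6 long genes that rose in the torpid livers had log2 fold changes of 0.51 to 0.96, and the 31 that fell of -2.91 to -0.57. Nrg3 stood at 33.7, 19.0 and 16.4 CPM in SA, 37.8, 35.7 and 35.4 in IBA, 41.5, 57.1 and 52.9 in Ent, 44.3, 60.9 and 48.4 in ET, and 56.4 and 65.8 in LT. Nrg3, the growth factor neuregulin 3 known from the nervous system, is a unit of 1028 kb on chromosome 1, from 49019174 to 50047533, and at 0.0421 CPM per kb was among the least transcribed long genes. It was low in SA and IBA and higher in every Ent, ET and LT library (log2 fold change 0.96 ± 0.18 SE, edgeR adjusted p = 0.00048). Stau2 stood at 319, 253 and 207 CPM in SA, 326, 304 and 334 in IBA, 445, 405 and 540 in Ent, 402, 586 and 509 in ET, and 584 and 481 in LT. Stau2, a double-stranded RNA-binding protein of RNA transport, showed the same split (log2 fold change 0.84 ± 0.14 SE, edgeR adjusted p = 0.00016).

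Further rises were in genes of unlike function. Scaf8, which binds the tail of RNA polymerase II, went from 495 ± 57.4 (SD, n = 3) CPM in SA and 475 ± 3.53 (SD, n = 3) in IBA to 688 ± 65.3 (SD, n = 3) in ET and 752 ± 125 (SD, n = 2) in LT (log2 fold change 0.57, edgeR adjusted p = 0.00027). Pcca, the alpha subunit of propionyl-CoA carboxylase, a mitochondrial enzyme of amino acid and odd-chain fatty acid breakdown, rose by 0.51, and its unit overlaps 2 units on the other strand. Stxbp6, a SNARE-binding protein, rose by 0.87 over the mean of SA and IBA, but its level in IBA (349 ± 19.3 CPM, SD, n = 3) was already near that in ET (376 ± 46.5, SD, n = 3). The highest state mean was in LT for all 6, and the Ent mean was above both warm means in all 6.

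From IBA to ET, a comparison of warm with cold hibernators, 2 long genes rose and 20 fell. These were 0.746% of the long units against 12.7% of all units that rose, and 7.46% against 10.2% that fell. The median log2 fold change was -0.34, against -0.03 over all units, and 82.8% of the long units had a negative value against 51.5% of all units. Scaled to uniquely mapped reads, 5 long genes rose and 8 fell, with a median of -0.07 against 0.23 over all units, and in a fit of the IBA and ET libraries alone 1 rose and 9 fell. The shares of all units called under these settings are not given here. Celf2 was among the genes that rose. Celf2 stood at 997, 1092 and 1088 CPM in SA, 422, 487 and 524 in IBA, 1437, 739 and 935 in Ent, 957, 1030 and 1150 in ET, and 1144 and 1238 in LT. Celf2, a regulator of splicing and mRNA stability, is a unit of 506 kb on chromosome 9. Its IBA libraries stood alone at the bottom, and the libraries of the other states ranged from 739 to 1437 CPM (log2 fold change 1.13 ± 0.21 SE, edgeR adjusted p = 0.00062).

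**Figure D4:**
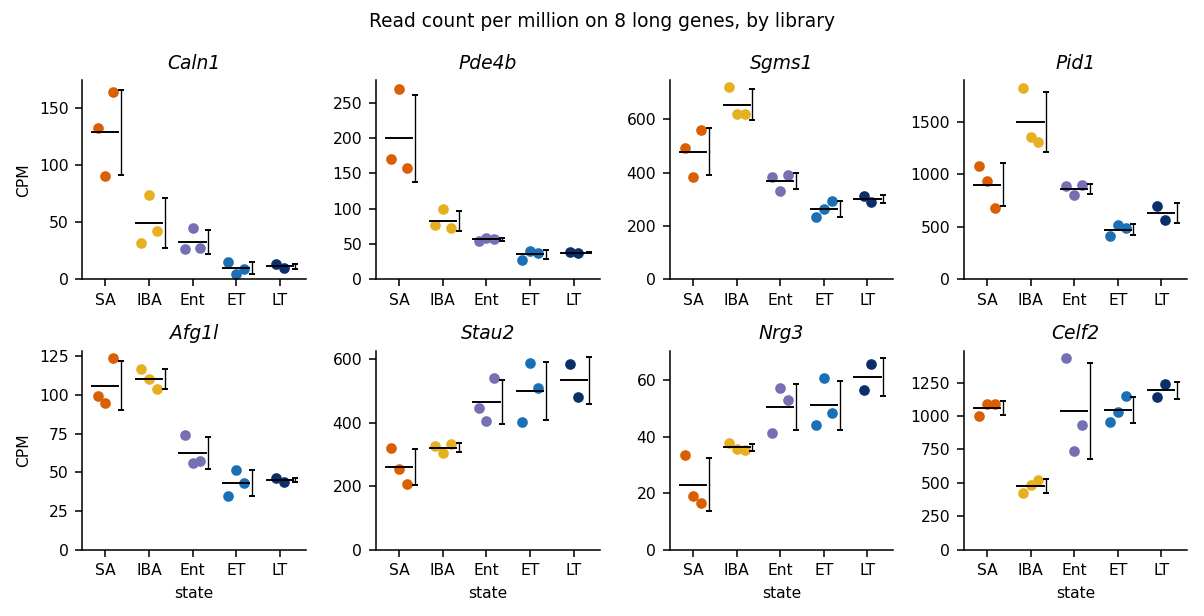
CPM of 8 long genes (y axis from 0) in each library by state, with bars at the state mean and whiskers of 1 SD (n = 3, in LT 2). Caln1 and Pde4b were highest in SA, Sgms1 and Pid1 in IBA, Afg1l was lower in Ent, ET and LT than in SA and IBA, Stau2 and Nrg3 were higher there, and Celf2 was lowest in IBA.

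Pid1 stood at 1082, 938 and 676 CPM in SA, 1823, 1353 and 1308 in IBA, 883, 803 and 893 in Ent, 413, 520 and 485 in ET, and 695 and 563 in LT. Pid1, a phosphotyrosine-interaction protein known to dampen insulin-stimulated glucose uptake, is a unit of 231 kb on chromosome 6 and was transcribed at 3.84 CPM per kb. It was highest in all 3 IBA libraries and its ET libraries were below every other (log2 fold change -1.66 ± 0.20 SE, edgeR adjusted p = 2.9e-05). The largest falls were those of Caln1 (log2 fold change -2.32, edgeR adjusted p = 0.00064), Eml6 (log2 fold change -2.07, edgeR adjusted p = 0.00022) and Kcnt2 (log2 fold change -2.00, edgeR adjusted p = 0.00048), all at low levels. Rasgef1b, Dnah6, Afg1l, Sgms1, Pde4b and Rfx3 followed, with log2 fold changes from -1.56 to -1.22. In all 20 genes that fell, and in 64.9% of all units, the IBA and ET libraries did not overlap. The 20 genes were called on these same libraries, so that their separation was largely set by the call. Without any single IBA or ET library the count of falls was 10 to 13, with 10 each without IBA replicate 1 and without ET replicate 3. No rise passed without an IBA or ET library, and 1 passed without SA replicate 1, LT replicate 1 or LT replicate 3. Season and state cannot be told apart in this comparison.

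From IBA to LT, 3 long genes rose and 12 fell, 1.12% and 4.48% of the long units, against 9.69% and 7.73% of all units. The median log2 fold change was -0.31, against -0.05 over all units. Among the rises were again that of Celf2 (log2 fold change 1.32 ± 0.23 SE, edgeR adjusted p = 0.0005) and that of Pcca (log2 fold change 0.73 ± 0.13 SE, edgeR adjusted p = 0.00069). Of the falls, Eml6 (-1.97), Dnah6 (-1.58), Rfx3 (-1.40), Afg1l (-1.29) and Pid1 (-1.25) had the lowest log2 fold changes. Sgms1, Cped1, Sfmbt2, Sdccag8 and Lmo7, a LIM-domain protein of cell junctions, fell by 0.92 to 1.12. The comparisons to ET and to LT share the IBA libraries, and the values lay side by side at -1.66 and -1.25 for Pid1, -1.34 and -1.29 for Afg1l, and 1.13 and 1.32 for Celf2.

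The calls from IBA to LT rested on few libraries. Scaled to uniquely mapped reads, 4 long genes rose and 2 fell, and in a fit of the IBA and LT libraries alone 1 rose and 6 fell. For these settings, too, the shares of all units called are not given here. With LT at 2 animals, no long gene passed without LT replicate 1, and 1 rose and 1 fell without LT replicate 3. Without IBA replicate 1 there were 1 and 1, without IBA replicate 2 there were 1 and 4, and without IBA replicate 3 there were 1 and 3. Without Ent replicate 1 or 2, which are in neither of the groups compared, 7 and 6 genes fell. With the collection season as a covariate, which SA and Ent make estimable, no long gene passed in edgeR, against 364 units of the whole table. In that fit 63 long units had an unadjusted p under 0.05 (13 higher and 50 lower). The share of all units at that cut in the same fit is not given here. Without the covariate it was 56.4%, against 38.8% of the long units. With it, the smallest adjusted p of a long unit was 0.0015. All 12 genes that fell and all 3 that rose kept their direction, with a median log2 fold change of -1.07 for the falls and 1.06 for the rises. These genes had been called on the same libraries, so that a kept direction is no separate support.

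From Ent to ET no long gene passed in edgeR or limma-voom, against 1.01% of all units that rose and 1.20% that fell. DESeq2 called 5, namely Eml6, Dnah6, Pid1 and Caln1 as lower in ET and Cadps2 as higher. The share of all units that DESeq2 called is not given here, so that these 5 cannot be set against a background. An unadjusted p under 0.05 was found for 52 long units (19.4%, against 40.5% of all units), 4 higher and 48 lower in ET. At an adjusted p of 0.05 in edgeR, 1 long gene rose and 20 fell, 0.373% and 7.46% of the long units, against 15.3% and 13.4% of all units. Cadps2 stood at 291, 272 and 275 CPM in SA, 404, 381 and 340 in IBA, 187, 216 and 229 in Ent, 314, 340 and 345 in ET, and 217 and 274 in LT. Cadps2, a protein of dense-core vesicle release that was singled out after its values were seen, was the gene that rose (log2 fold change 0.66 ± 0.12 SE, edgeR adjusted p = 0.0026). Its ET libraries were above all of SA, Ent and LT, and 1 of them was below all of IBA. The median log2 fold change of the long units was -0.20, against -0.01 over all units, and 82.1% had a negative value against 51.1% of all units.

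Between early and late torpor no long gene differed at an adjusted p of 0.001 or 0.05 in edgeR, DESeq2 or limma-voom. Of the whole table, 0% of units were called higher in LT and 0% lower at 0.001. The smallest adjusted p of a long unit was 0.26, and 6 long units had an unadjusted p under 0.05 (2.24%, against 8.70% of all units). Among these, Prkce, Thada, Pcca and Agbl1 had higher values in LT, and Cadps2 had a lower one. The median log2 fold change was 0.05, against -0.01 over all units, with a median standard error of 0.20 and with 167 values above and 101 below 0. Units of 10 to 25 kb had a median of -0.11, those of 100 to 200 kb 0.04 and those of 600 kb or more 0.13.

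Among the largest differences from ET to LT were those of long genes with few reads or a wide spread, and none passed. Lsamp stood at 6.18, 5.11 and 23.9 CPM in ET and 43.1 and 23.0 in LT (log2 fold change 1.48, edgeR adjusted p = 0.58). Pcdh7, a protocadherin, stood at 16.2, 24.4 and 63.8 and 9.07 and 144 CPM (log2 fold change 1.14, edgeR adjusted p = 0.89), so that its LT libraries lay on both sides of ET. Tmem178b (log2 fold change 1.17, edgeR adjusted p = 0.69) and Syn3, a synaptic vesicle protein (log2 fold change 0.67, edgeR adjusted p = 0.86), were of the same kind. On the other side, Stk32b (log2 fold change -1.62, edgeR adjusted p = 0.7), Slc35f3 (log2 fold change -0.66, edgeR adjusted p = 0.89), CUNH3orf67 (log2 fold change -0.64, edgeR adjusted p = 0.86), Srgap1 (log2 fold change -0.58, edgeR adjusted p = 0.91) and Tg (thyroglobulin; log2 fold change -0.45, edgeR adjusted p = 0.88) had the lowest values. The LT libraries of Tg, at 409 and 829 CPM, lay on both sides of 2 of its ET libraries, which stood at 1228, 548 and 751.

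**Figure D5:**
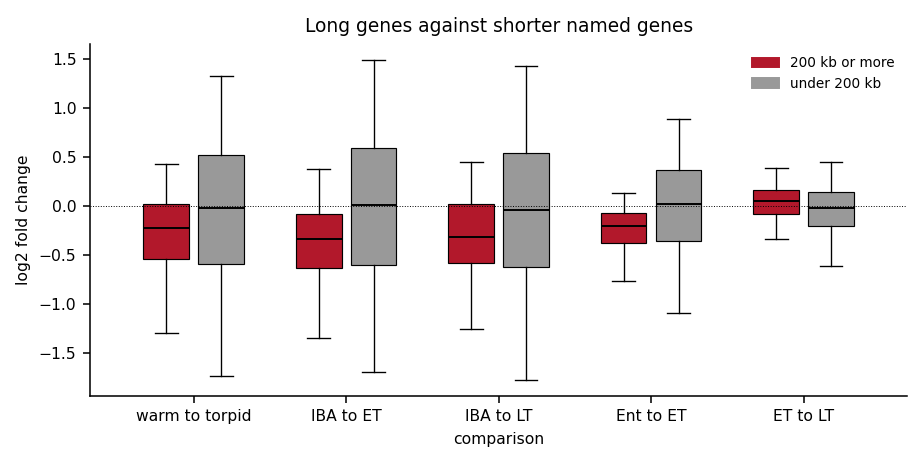
Log2 fold changes (y axis) of the 268 long units (red) and the 4124 shorter named units (grey) in the 5 comparisons, as boxes of the median and quartiles with whiskers at the 5th and 95th percentiles of units. The median of the long units was -0.22, -0.34, -0.31 and -0.20 in the first 4 comparisons and 0.05 from ET to LT.

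Each long gene can also be placed by the state in which its mean CPM was highest and lowest. IBA held the highest mean for 122 of the 268 long units (45.5%, against 23.0% of the shorter named units) and the lowest for 19 (7.09% against 23.9%). ET held the highest mean for 9 (3.36% against 22.1%) and the lowest for 92 (34.3% against 18.6%). LT held the highest for 47 (17.5% against 21.5%) and the lowest for 71 (26.5% against 25.1%). Tested over the 5 states together, 25 long units passed at an adjusted p of 0.001 (9.33%), against 25.5% of all units.

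Of the 10 longest genes, 2 passed from warm to torpid, Nrg3 among them. Of all units 18.6% rose and 17.6% fell, and 10 genes are too few to be set apart from these shares. Dlg2, a synaptic scaffold of 1970 kb, Auts2, Wwox (an oxidoreductase) and Ptprm (a receptor tyrosine phosphatase) had log2 fold changes from warm to torpid of -0.19, 0.17, 0.09 and -0.12, with adjusted p of 0.41 or more. Macrod2, an ADP-ribose hydrolase of 1942 kb (log2 fold change 0.29, edgeR adjusted p = 0.094), and Pard3b, a polarity protein (log2 fold change 0.32, edgeR adjusted p = 0.071), had values above 0 that did not pass. Zbtb20, a zinc finger repressor of alpha-fetoprotein in the liver, was the most transcribed of the 10 at 3.34 CPM per kb and had a value of -0.37 (edgeR adjusted p = 0.015). Thsd7b stood at 21.5, 93.5 and 1184 CPM in SA, 16.2, 14.8 and 19.3 in IBA, 8.58, 8.47 and 9.78 in Ent, 10.2, 5.70 and 3.03 in ET, and 6.95 and 8.84 in LT. Thsd7b, a thrombospondin-domain protein, had by far its highest value in SA replicate 3, and its log2 fold change of -3.59, the lowest of all long units, did not pass (edgeR adjusted p = 0.0024). The 5 genes with the most counts per kb, again too few to be set against those shares, did not pass. Their log2 fold changes ran from -0.51 for Gbe1 to 0.28 for Adk.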

How the data were processed

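The 14 liver libraries were made by GRO-seq. Per the labels and the methods, the authors trimmed reads with cutadapt, aligned them to HiC_Itri_2 with BWA, redefined gene bodies from the reads with fstitch, merged overlapping genes, removed 500 nt after each transcription start and counted uniquely aligned reads with featureCounts. The authors deposited these raw counts without normalization, and depth per library limits each value to counting error and the spread between animals. Here edgeR 4.0.16 (R 4.3.3) fitted a quasi-likelihood model of the 5 states to all units after TMM normalization, with Benjamini-Hochberg adjustment and a threshold of 0.001, as in the study. CPM used TMM-scaled library sizes, and log2 CPM a prior count of 2. Values per library were compared by exact permutation tests (scipy 1.17.1). The edgeR fit alone was tested on simulated counts, for warm to torpid and ET to LT, with the same spread for every unit. The tests across units were repeated with DESeq2 1.42.0 and with limma-voom (limma 3.58.1), under other scalings, filters, length limits, groups and thresholds, with a replicate block, leaving out each library and, from IBA to LT, with season as a covariate. The values per library were recomputed with other reference units, length limits and groups, and leaving out each library compared.

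Named genes were, from warm to torpid, up to 15 rises and 15 falls with non-overlapping groups, up to 10 of each from IBA or Ent, the 5 highest and 5 lowest from ET to LT, the 10 longest, the 5 with the most counts per kb and 3 on either side of 200 kb. A few genes that this rule names are not reported here. Other members named in the text were chosen after their values were seen. The members and lists were chosen with earlier results of these data known. Collection seasons and totals of uniquely mapped reads came from the study's sample table.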

Additional observations from a re-analysis of the deposited data

How the results depend on the processing

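Counts below are rises then falls of long units at an adjusted p of 0.001, to be set beside 6 and 31 from warm to torpid, 2 and 20 from IBA to ET, 3 and 12 from IBA to LT, and 0 and 0 in the steps from Ent to ET and ET to LT. DESeq2 gave 14 and 52, 5 and 41, 4 and 30, and 1 and 4 in the first 4 of these. Uniquely mapped reads as library size gave 18 and 18, 5 and 8, and 4 and 2 in the first 3, and the compared groups alone gave 1 and 9 from IBA to ET and 1 and 6 from IBA to LT. An adjusted p of 0.05 gave 23 and 101, 10 and 88, 15 and 67, and 1 and 20 in the first 4. Since they count other units, a minimum length of 100 kb gave 22 and 129, 6 and 92, 6 and 47, and 0 and 2, and one of 300 kb gave 3 and 13, 2 and 7, and 3 and 1. Season as a covariate left 0 and 0 from IBA to LT. The cause of the changes under the other settings was not tested. Apart from the shares of all units given in the sections above, these counts have no background under the same setting. They show how the number of calls moved and are not results about long units. With each library left out in turn, rises ranged from 1 to 7 and falls from 20 to 35 from warm to torpid, from 0 to 2 and from 10 to 23 from IBA to ET, and from 0 to 3 and from 0 to 14 from IBA to LT, and stayed at 0 and 0 in the other comparisons. The lone LT library of 2 such fits is assumed to vary like the other states.

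Replicate numbers did not pair the libraries, since deviations from the state means correlated at a median r of 0.03 over 26 pairs with the same number (-0.26 to 0.23) and -0.01 over 52 other pairs. The replicate block gave 3 and 28, 0 and 15, 1 and 5, 0 and 0, and 0 and 0. The group difference in median level was -0.28 to -0.21 without single libraries and -0.31 to -0.19 under the tested settings, past 0.05 in each, and -0.10 within the earliest season, where it could not be tested. The torpid minus warm difference in the share of counts was -0.702 to -0.320 without single libraries, -1.84 (exact permutation p = 0.056) at a minimum length of 100 kb, -0.181 at 300 kb, -0.809 as a share of named single-gene units, 0.204 of uniquely mapped reads and 0.434 within that season. No setting tested for torpid against warm reached 0.05. For the named genes, 1079 of 1308 values kept direction and side of the threshold, 227 were no longer past it, most often without LT replicate 1 (23), and the values of Tmem178b (-0.61) and Pcdh7 (-1.94) from ET to LT changed sign without LT replicate 3.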
